A study of Mus musculus with 30 samples.

Results

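miRNAs of heart sections holding both ventricles were compared between day 28 and day 3 after mice received the carbon black Printex 90. Membership followed the source names of the samples, which gave 5 hearts taken on day 28 and 5 taken on day 3, or 10 of the 30 samples of the series. The array file of day 3 replicate 3 carried no signal, so 5 day 28 and 4 day 3 arrays entered the fit, and that mouse contributed only through the deposited series value table. All animals of both days were female C57BL/6 mice, obtained at 5 to 6 weeks of age, each of which received a single 162 µg dose into the trachea. The particles were suspended in 0.9% NaCl with 10% cell-free lavage fluid from mice of the same strain, and 40 µl of suspension was followed by 150 µl of air. The vehicle hearts set beside them, 6 on day 3 and 4 on day 28, came from mice given the same fluid without particles. Each array carried RNA of 1 mouse. The day 28 mice were killed 25 days later after the dose than the day 3 mice, so time since the dose and age cannot be told apart here.

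miRNAs are short RNAs that guide Argonaute proteins to messenger RNAs, mostly by pairing of the seed at their 5′ end, and lower the output of those messages. In the heart a few miRNAs are carried in introns of myosin heavy chain genes and are made together with their host: miR-208a with Myh6, the fast adult myosin of the rodent ventricle, miR-208b with Myh7, the slow myosin that prevails before birth and returns under stress, and miR-499 with Myh7b. The miR-29 family represses collagens and other matrix transcripts in cardiac fibroblasts. Carbon black of this kind is a nanosized particle that inflames the lung when it is inhaled or instilled.

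The sequences of the miRNAs on which the comparison turns are shown 5′ to 3′ as RefSeq gives them for GRCm38.p6, with the seed, bases 2 to 8 counted from the 5′ end, in capitals. The myosin gene miRNAs come first, because 1 of them carried the only difference past the threshold. On the array's names, 62 of the 306 tested miRNAs matched a RefSeq entry exactly and 14 more were matched through a table of arm names.
miR-208b: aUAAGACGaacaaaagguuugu
miR-208a-3p: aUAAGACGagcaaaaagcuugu
miR-499: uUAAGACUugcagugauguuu
miR-208b lies at chr14:54975710-54975731 on the minus strand, within the annotated bounds of Myh7 and of the predicted gene Gm31251. miR-208a-3p lies at chr14:54949072-54949093 on the minus strand within Myh6, and miR-499 at chr2:155622893-155622913 on the plus strand within Myh7b. miR-208a-3p and miR-208b share the seed UAAGACG and differ at 3 positions, counted from the 5′ end with the base of miR-208a-3p first: G10A, A16G and C18U. The seed of miR-499 is UAAGACU.

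The miR-29 guides are shown because all were higher on day 28, and miR-29c* because it is the opposite strand of the miR-29c hairpin and has another seed.
miR-29a: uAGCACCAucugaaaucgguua
miR-29b: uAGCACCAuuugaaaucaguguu
miR-29c: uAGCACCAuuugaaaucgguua
miR-29c*: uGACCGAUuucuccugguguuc
The 3 guides share the seed AGCACCA, and miR-29a differs from miR-29c by C10U alone. miR-29a lies at chr6:31062673-31062694 on the minus strand. miR-29b has a locus beside it at chr6:31063025-31063047 and a second at chr1:195037091-195037113 on the plus strand, where miR-29c follows at chr1:195037600-195037621 within A330023F24Rik.

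Among the miRNAs that were lower on day 28, pairs with a common seed are shown for the miR-130 and miR-301, miR-181 and miR-19 families.
miR-301a: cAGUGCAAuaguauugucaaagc
miR-130a: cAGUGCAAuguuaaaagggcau
miR-181c: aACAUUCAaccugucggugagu
miR-181a: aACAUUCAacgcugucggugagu
miR-19a: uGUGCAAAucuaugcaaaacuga
miR-19b: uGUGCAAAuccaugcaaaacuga
miR-301a lies at chr11:87113054-87113076 on the plus strand within Ska2, and miR-130a at chr2:84741116-84741137 on the minus strand. miR-19a differs from miR-19b by U11C alone.

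The 9 arrays were of similar quality apart from day 3 replicate 2. That array had 274 mouse miRNAs detected and 22.1% of spots well above background, and the others 295 to 314 and 23.9% to 25.6%. The mean share of spots well above background was 24.7% ± 0.631 (SD, n = 5) on day 28 and 24.2% ± 1.45 (n = 4) on day 3. That difference of 0.56 percentage points did not pass an exact two-sided permutation test (p = 0.532; the smallest p this design allows is 0.00794), and it was -0.14 without day 3 replicate 2. Muscle identity was plain in the markers: miR-1a, a muscle miRNA, lay between 15.90 and 16.14 in each of the 9 arrays. These values are on the log2 scale of scaled signal used throughout. miR-208a-3p, from Myh6, was detected on 5 of 5 day 28 and 4 of 4 day 3 arrays. Of 39 names in a list of markers of other tissues, many of them passenger strands, 36 were detected on no array. The exceptions were miR-128, a brain miRNA detected on all 29 arrays, miR-34b-3p on 28 and miR-122 on 26. The number of arrays limits the precision of every value. The arrays sat on 4 slides: slide 1 held 1 day 28 and 2 day 3 arrays, slides 3 and 4 held 1 of each, and slide 2 held 2 day 28 arrays only.

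Of 306 miRNAs tested in limma over all 6 groups of the series, 1 passed an adjusted p of 0.05, a share of 0.327%. It was miR-208b, which fell; 0 rose. At an unadjusted p under 0.05 there were 11 miRNAs, 8 higher and 3 lower on day 28. That is a smaller share of the 306 than the 0.05 that would fall there without any difference. Day 28 was higher in 206 of the 306 (67.3%) and the median difference was 0.09, or 0.05 over the 264 miRNAs left when those with names of the Sfmbt2 cluster are set aside. This excess of higher values depended on the scaling: the median was -0.12 with 36.3% higher when arrays were scaled over all probes, -0.02 with 47.1% higher after quantile normalization, -0.03 with 43.8% higher without scaling, and -0.02 with 45.8% higher in the series value table. All-probe scaling alone lowered the median by 0.21, and named positive differences as large as 0.21 (miR-494) changed sign under it. The directions of positive differences of that size or less therefore depend on the scaling. Named negative differences kept their sign under it, but a scaling that lowers the median could hardly turn them. The 95% interval lay within a 2-fold change either way for 222 miRNAs and within 1.5-fold for 167.

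**Figure D1:**
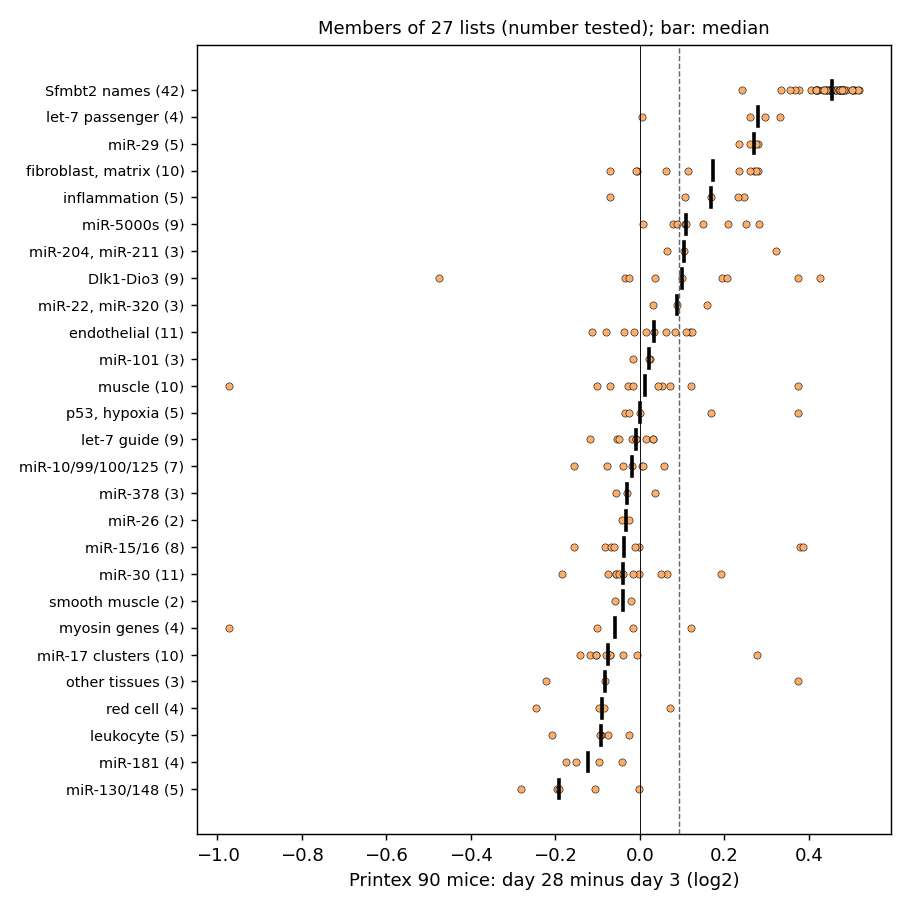
Each point is 1 miRNA's day 28 minus day 3 difference in Printex 90 hearts on the log2 scale, grouped by list with the number tested in brackets; the bars are list medians, the solid line is 0 and the dashed line is the median of all 306 miRNAs, 0.09. miR-208b stands alone at -0.97, the Sfmbt2-named miRNAs cluster around 0.46 and the miR-29 family around 0.27.

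miR-208b fell in the day 28 hearts, to a signal not well above background. Its log2 signal on day 28 was 4.08, 4.08, 4.08, 4.72 and 4.21 in replicates 1 to 5. On day 3 it was 5.52, 4.73, 5.03 and 5.53 in replicates 1, 2, 4 and 5. Every day 28 array lay below every day 3 array, although day 28 replicate 4 and day 3 replicate 2 nearly met. The miRNA was detected on 4 of 4 day 3 arrays and on 0 of 5 day 28 arrays, where 3 values sat at the floor of 4.08, the lowest detected signal. The fitted difference was -0.97 ± 0.16 (SE; 95% interval -1.31 to -0.64; limma adjusted p = 0.00101). Since the day 28 signal was not well above background, the change is also given as a bound within the main processing. There miR-208b was at least 1.48-fold lower, from a mean of 5.20 on day 3 against a day 28 bound of 4.64. The day 28 bound takes for each array the higher of its lowest signal well above background and the probe's own. It leaves out the spread between mice and does not hold across the alternatives. Smaller log2 differences came with normexp (-0.20), in the series value table (-0.37) and with a floor at the 5th percentile of detected signals (-0.42). Its 2 probes differed by -0.96 and -0.99.

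In the series value table, which also holds day 3 replicate 3, miR-208b read 6.14, 6.12, 6.03, 6.23 and 6.16 on day 28 and 6.59, 6.47, 6.40, 6.41 and 6.67 on day 3. All 5 day 28 values were again below all 5 day 3 values, and the difference of -0.37 passed (limma adjusted p = 0.0182). With slide as a block the difference was -0.95 (adjusted p = 0.00880), and within slides 1, 3 and 4 it was -1.05, -0.32 and -1.32. The call was lost, with the same sign, after quantile normalization (-0.95, adjusted p = 0.0923), without scaling (-0.87, 0.958), with normexp background correction (-0.20, 0.628), with a floor at the 5th percentile of detected signals (-0.42, 0.338) and in a fit of the compared groups alone (-0.97, 0.216). With the total gene signal the difference was -2.08 (adjusted p = 0.00809).

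The other myosin gene miRNAs did not pass. miR-208a-3p, from Myh6, read 8.75, 8.59, 8.88, 8.61 and 8.84 on day 28 and 8.83, 8.95, 8.73 and 8.83 on day 3, which overlap, with a difference of -0.10 ± 0.12 (adjusted p = 0.733). miR-208a-5p, from the other arm of that hairpin, differed by -0.02. miR-499 read 11.32, 11.04, 11.31, 11.46 and 11.55 on day 28 and 10.91, 11.18, 11.32 and 11.46 on day 3, a difference of 0.12 ± 0.15 (adjusted p = 0.778) whose sign turned under all-probe scaling, without scaling and in the series value table. So 1 of the 4 tested myosin gene miRNAs passed the threshold, against 0.327% of all 306. By sign 3 were lower and 1, miR-499, was higher. The list's median was -0.06 against 0.09 over all tested miRNAs. The 2 remaining names of the list were not tested, being detected on no array.

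**Figure D2:**
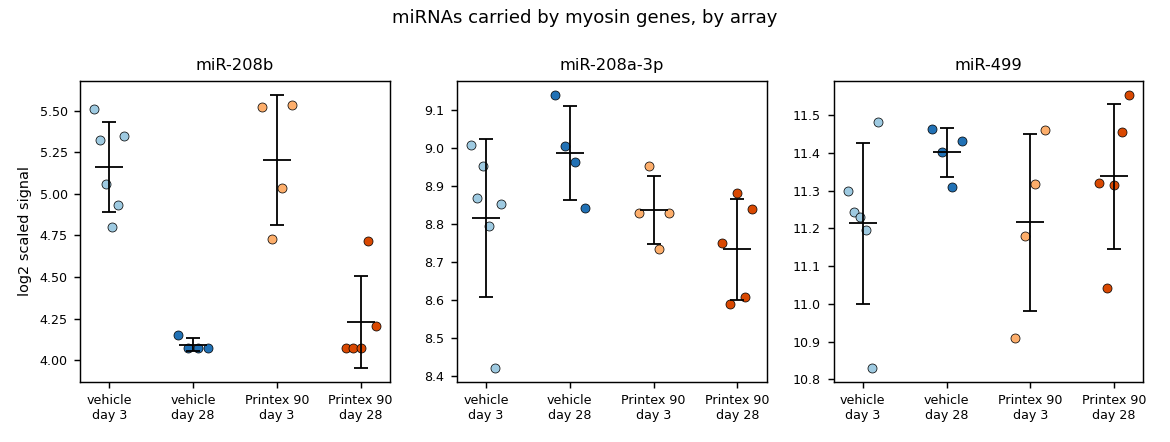
Log2 scaled signal of 3 miRNAs carried by myosin genes, 1 point per array, in vehicle and Printex 90 hearts on days 3 and 28; horizontal marks and bars are means ± SD. miR-208b lies between 4.73 and 5.53 on day 3 and between 4.08 and 4.72 on day 28 in Printex 90 hearts, and the other miRNAs overlap between the days.

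miR-208b was also at its day 3 level on day 1, when the 6 Printex 90 hearts lay between 5.12 and 5.63, with the 4 vehicle hearts of that day between 5.18 and 5.54. In vehicle hearts it lay between 4.80 and 5.51 on day 3 and between 4.08 and 4.15 on day 28. It was detected there on 5 of 6 and 0 of 4 arrays, with a difference of -1.07 ± 0.16 (adjusted p = 1.28e-04). Within the main processing it was at least 1.54-fold lower, a bound with the same limits as in the exposed mice. As in the exposed mice, that call was lost after quantile normalization (-0.84, adjusted p = 0.164), without scaling (-0.84, 1), with normexp (-0.35, 0.412) and with the floor at the 5th percentile (-0.37, 0.279).

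All 5 tested members of the miR-29 family were higher on day 28, and 0 passed the threshold in limma. At an unadjusted p under 0.05, 4 of the 5 were higher, among 8 higher of all 306 tested. The guides share a seed, and miR-29a and miR-29c differ by 1 base, so they are not independent readings. The family's median was 0.27 against 0.09 over all tested miRNAs. It stayed above 0 under every alternative run, with the lowest value, 0.06, under all-probe scaling, where all tested miRNAs had a median of -0.12.

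miR-29b read 12.00, 11.96, 12.16, 11.92 and 12.11 on day 28 and 11.55, 11.85, 11.81 and 11.79 on day 3. Every day 28 array lay above every day 3 array, with a difference of 0.28 ± 0.09 (95% interval 0.09 to 0.47; adjusted p = 0.369). miR-29c read 12.66, 12.57, 12.70, 12.60 and 12.87 on day 28 and 12.26, 12.36, 12.44 and 12.55 on day 3. The groups did not overlap, though the lowest day 28 and highest day 3 arrays were close, and the difference was 0.28 ± 0.11 (adjusted p = 0.687). miR-29a read 12.83, 12.76, 12.91, 12.86 and 13.09 on day 28 and 12.50, 12.49, 12.68 and 12.80 on day 3. Here day 3 replicate 5 exceeded day 28 replicate 2, and the difference was 0.27 ± 0.12 (adjusted p = 0.687).

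The passenger strand miR-29c* read 6.54, 6.44, 6.51, 6.46 and 6.69 on day 28 and 6.13, 6.22, 6.31 and 6.41 on day 3. Its groups did not overlap, and the difference of 0.26 ± 0.09 missed the threshold in the fit without slides (adjusted p = 0.369) and passed it with slide as a block (0.29, adjusted p = 0.0215). The dim strand miR-29a* differed by 0.23 ± 0.23 (adjusted p = 0.688), with overlapping arrays. Within slides 1, 3 and 4, miR-29b was higher on day 28 by 0.30, 0.11 and 0.32 and miR-29c by 0.35, 0.16 and 0.31. In the series value table miR-29b lay between 11.78 and 12.04 on day 28 and between 11.49 and 11.91 on day 3, so the groups overlapped there.

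**Figure D3:**
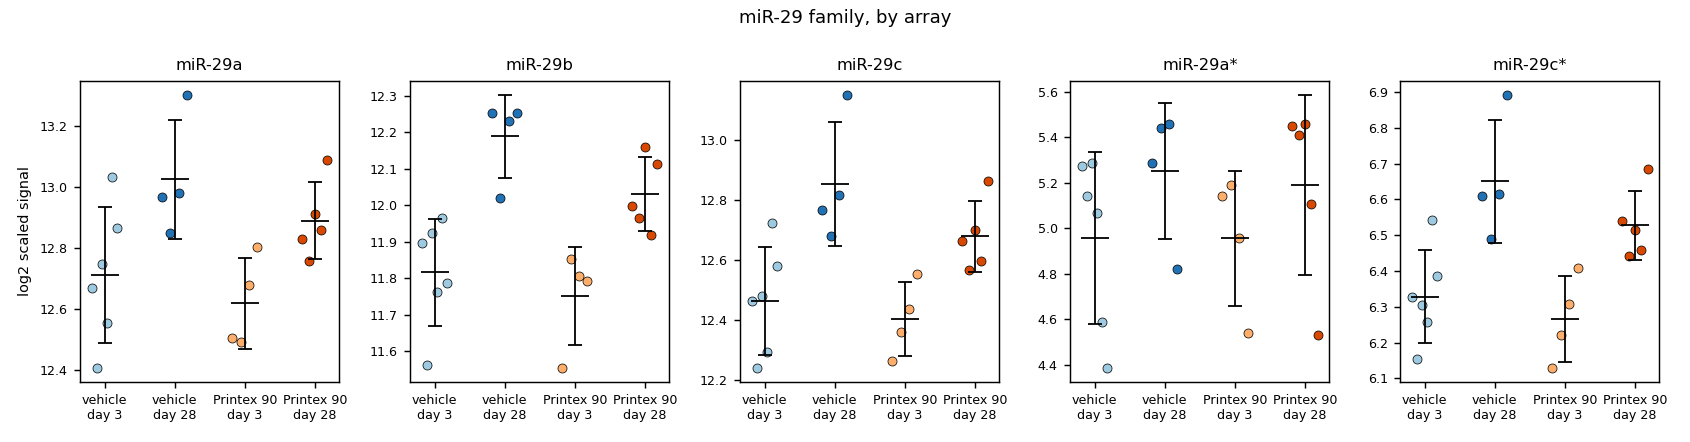
Log2 scaled signal of the 5 tested miR-29 miRNAs, 1 point per array, with means ± SD, in vehicle and Printex 90 hearts on days 3 and 28. In Printex 90 hearts the day 28 arrays of miR-29b, from 11.92 to 12.16, lie above the day 3 arrays, from 11.55 to 11.85; miR-29a and miR-29a* overlap between the days.

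The other fibroblast and matrix miRNAs gave no such shift. miR-21, which is abundant in cardiac fibroblasts and rises in many injured tissues, read 10.44, 10.62, 10.51, 10.52 and 10.62 on day 28 and 10.70, 10.67, 10.50 and 10.58 on day 3, a difference of -0.07 ± 0.12 (adjusted p = 0.886). miR-214, of fibroblasts, differed by 0.11, miR-199a-5p by 0.06 and its opposite arm miR-199a-3p by -0.01. Of the 10 tested members of this list, 7 were higher and 3 lower with a median of 0.17, and the 5 miR-29 miRNAs made up most of the higher ones. Under all-probe scaling the list's median was -0.04.

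Across all 306 miRNAs, every day 28 array lay above every day 3 array for 5 (1.63%): miR-29b, miR-29c, miR-29c*, miR-3072* and let-7f-1*. In the series value table the groups of each of these 5 overlapped, both with the fifth day 3 mouse and without it. Every day 28 array lay below every day 3 array for 2 (0.654%), miR-208b and miR-301a. miR-301a, hosted by the spindle gene Ska2, read 6.49, 6.48, 6.43, 6.41 and 6.52 on day 28 and 6.79, 6.69, 6.73 and 6.78 on day 3. Its groups were tight and well apart, with a difference of -0.28 ± 0.09 (95% interval -0.46 to -0.10), which missed the threshold (adjusted p = 0.311). Within slides 1, 3 and 4 it was lower by -0.25, -0.32 and -0.27. Over all alternatives the difference ran from -0.49 to -0.12, and in the series value table, with the fifth day 3 mouse, all day 28 arrays again lay below all day 3 arrays, by a gap of less than 0.01 between the nearest ones. The vehicle hearts did not overlap either, at 6.38 to 6.55 on day 28 and 6.60 to 6.77 on day 3 (-0.23 ± 0.08, adjusted p = 0.271).

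miR-130a shares the seed of miR-301a and differed by -0.20 ± 0.10 (adjusted p = 0.687). It read 10.09, 10.25, 10.09, 10.08 and 10.36 on day 28 and 10.49, 10.14, 10.36 and 10.48 on day 3, with day 3 replicate 2 inside the day 28 range and replicate 4 at its upper end. miR-148a, whose family shares part of that seed, read 9.51, 9.17, 9.34, 9.39 and 9.59 against 9.55, 9.41, 9.66 and 9.74, a difference of -0.19 ± 0.09 (adjusted p = 0.687). All 5 tested members of the miR-130, miR-301, miR-148 and miR-152 families were lower, by between -0.28 and -0.00, with a median of -0.19. Of these 0 passed in limma and 1 had an unadjusted p under 0.05, among 3 lower of all 306 tested. The list's median stayed below 0 under every alternative, from -0.40 with all-probe scaling to -0.12 with normexp. The medians of all tested miRNAs were -0.12 and 0.09 there. The other scalings lower the median of all miRNAs, so they could hardly turn a negative list.

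The 4 tested members of the miR-181 family, which tunes lymphocyte signalling and in the heart acts on mitochondrial transcripts, were lower by between -0.04 and -0.17. miR-181c read 6.36, 6.43, 6.26, 6.35 and 6.50 on day 28 and 6.66, 6.34, 6.56 and 6.65 on day 3; all arrays but day 3 replicate 2 were apart, and the difference was -0.17 ± 0.08 (adjusted p = 0.687). miR-181a differed by -0.15 ± 0.09 (adjusted p = 0.687). The family's median of -0.12 stayed below 0 under every alternative, which for the other scalings says little, for the same reason. It was -0.34 with all-probe scaling and -0.01 with normexp.

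The miR-17, miR-106a and miR-106b clusters, known for promoting cell division, had 9 of 10 tested members lower and a median of -0.08. miR-19b read 9.32, 9.40, 9.33, 9.45 and 9.48 on day 28 and 9.64, 9.40, 9.49 and 9.61 on day 3, a difference of -0.14 ± 0.07 (adjusted p = 0.687). miR-19a differed by -0.12 ± 0.06 (adjusted p = 0.687) and the exception, miR-18a*, by 0.28. In vehicle hearts 9 of the 10 were also lower, with a median of -0.10. Also among the 10 lower miRNAs with the smallest p were miR-28 (-0.14), miR-28c (-0.16) and miR-450a (-0.15), with adjusted p = 0.687 for each and overlapping arrays.

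Of the miRNAs higher on day 28, miR-1895 had the smallest p. It read 5.64, 6.00, 5.93, 5.54 and 5.78 on day 28 and 5.55, 5.44, 5.38 and 5.34 on day 3, so that day 28 replicate 4 just met day 3 replicate 1, and its difference was 0.35 ± 0.11 (95% interval 0.13 to 0.57; adjusted p = 0.311). miR-3072* read 5.37, 5.18, 5.34, 5.45 and 5.32 against 5.10, 4.64, 5.07 and 5.08. Its groups were apart (0.36 ± 0.17, adjusted p = 0.687), with day 3 replicate 2 far below the rest. The sign turned to -0.09 in the series value table, where day 3 replicate 3 read 7.04 and the other day 3 mice 6.43 to 6.49. let-7f-1*, a passenger strand of the let-7 family, read 5.33, 5.29, 5.12, 5.33 and 5.10 against 5.01, 4.60, 4.91 and 5.09 (0.33 ± 0.16, adjusted p = 0.687).

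miR-34a, a p53 target known to increase in the ageing heart, read 9.50, 9.46, 9.49, 9.48 and 9.73 on day 28 and 9.16, 9.29, 9.45 and 9.55 on day 3. Day 3 replicate 5 overlapped the day 28 arrays, and the difference was 0.17 ± 0.08 (adjusted p = 0.687), or -0.04 with all-probe scaling. miR-291b-5p and miR-3092, both dim, differed by 0.44 ± 0.22 and 0.33 ± 0.17 (adjusted p = 0.687 for each). Day 3 replicate 2 was the lowest array for both, at 4.60 and 4.73.

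The abundant muscle miRNAs held nearly the same signal on both days. miR-1a, which drives cardiomyocyte differentiation, read 16.04, 15.93, 15.98, 15.93 and 16.14 on day 28 and 15.90, 15.99, 16.11 and 16.14 on day 3 (-0.03 ± 0.08, 95% interval -0.19 to 0.13, adjusted p = 0.915). miR-133a, made from the same transcripts, differed by 0.05 ± 0.10 (95% interval -0.16 to 0.27) and miR-133b by 0.04. miR-206, a miRNA of skeletal muscle, was dim and detected on 4 of 5 and 2 of 4 arrays, with a difference of 0.37 ± 0.30 (adjusted p = 0.687). In the muscle list 5 of 10 were higher and 5 lower, 1 of them past the threshold, miR-208b.

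Endothelial and smooth muscle miRNAs gave small differences. miR-126-3p, carried by the endothelial gene Egfl7, read 13.54, 13.74, 13.47, 13.49 and 13.73 on day 28 and 13.47, 13.30, 13.52 and 13.63 on day 3 (0.12 ± 0.08, adjusted p = 0.687). Of 11 tested endothelial miRNAs, 7 were higher and 4 lower with a median of 0.03, which turned negative under 4 of the alternatives on scaling or signal. miR-143 and miR-145 of smooth muscle differed by -0.02 ± 0.24 and -0.06 ± 0.20 (adjusted p = 0.986 and 0.923). Of both lists, 0 passed in limma and 0 had an unadjusted p under 0.05. In tissue of this kind, fewer cells of a type and less RNA per cell cannot be told apart.

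Blood cell miRNAs varied more between mice than between days. miR-451, the most abundant miRNA of red cells, read 13.51, 14.60, 14.09, 13.78 and 13.65 on day 28 and 13.71, 14.83, 13.78 and 13.76 on day 3. Day 28 replicate 2 and day 3 replicate 2 stood above the others, and the difference was -0.10 ± 0.25 (adjusted p = 0.915). miR-144, processed from the same transcript, read 9.50, 10.47, 10.19, 9.94 and 9.76 against 9.96, 11.07, 9.88 and 9.97 (-0.25 ± 0.25, adjusted p = 0.691), with the same 2 arrays on top. The red cell list's summed level ran from 13.62 to 14.69 on day 28 and from 13.83 to 14.94 on day 3. Its median was -0.09, and 0.11 without day 3 replicate 2. In the series value table the additional mouse, day 3 replicate 3, was also high in miR-451, at 14.62.

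All 5 tested leukocyte miRNAs were lower on day 28, with 0 past the threshold in limma and 0 at an unadjusted p under 0.05. miR-142-5p, of blood cells in general, read 6.23, 6.52, 6.44, 6.51 and 6.28 on day 28 and 6.71, 7.17, 6.18 and 6.36 on day 3 (-0.21 ± 0.17, adjusted p = 0.687). miR-142-3p differed by -0.07 ± 0.19, miR-342-3p by -0.09 ± 0.12 and miR-223, of neutrophils and monocytes, by -0.02 ± 0.10. The list's summed level ran from 10.08 to 10.47 on day 28 and from 10.06 to 10.60 on day 3, and its median was -0.09, or -0.02 without day 3 replicate 2, the array highest in miR-142-3p, miR-142-5p, miR-451 and miR-144. The part of red cell and white cell RNA in the other differences was not tested.

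Of the miRNAs induced in inflammation, 4 of 5 were higher, with a median of 0.17 that turned negative under all-probe scaling, quantile normalization and the series value table. miR-146a, a brake on Toll-like receptor signalling, read 7.02, 7.59, 6.59, 6.81 and 6.83 on day 28 and 6.90, 6.50, 6.59 and 6.90 on day 3. Day 28 replicate 2 alone stood out, and the difference was 0.25 ± 0.17 (adjusted p = 0.687). miR-155, a miRNA of activated macrophages and lymphocytes, differed by 0.11 ± 0.09 (adjusted p = 0.687), and its sign turned under all-probe scaling, without scaling, after quantile normalization and in the series value table. The hypoxia miRNA miR-210 differed by -0.03 ± 0.09 (adjusted p = 0.928). The 5 tested miRNAs induced by p53 or low oxygen had a median of 0.00, with 3 higher and 2 lower, and miR-34a alone had an unadjusted p under 0.05.

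Most markers of other tissues were not detected. Of 39 names for liver, brain, epithelium, pancreas and ciliated cells, 36 were detected on no array, among them miR-124, miR-9, miR-137, miR-200a, miR-200b, miR-200c, miR-141, miR-429, miR-205, miR-375, miR-217 and miR-34c. Many of the 36 were passenger strands, and these included miR-122* and miR-128-1*, whose guides were detected. The summed level of the 3 tested ones ran from 7.77 to 8.24 on day 28 and from 7.76 to 8.29 on day 3. miR-122, the liver's main miRNA, ran unevenly through both groups: it read 4.83, 6.34, 4.08, 5.85 and 6.17 on day 28 and 6.25, 5.24, 4.52 and 6.69 on day 3 (-0.22 ± 0.76, adjusted p = 0.923). miR-34b-3p, of ciliated cells, read between 5.75 and 6.66 on day 28 and between 5.27 and 6.18 on day 3 (0.38 ± 0.35, adjusted p = 0.687), and miR-128, of brain and present on every array, differed by -0.08 ± 0.09.

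The broadly expressed families lay close to 0. The let-7 guides, which favour differentiation over growth, had 3 of 9 higher and a median of -0.01, with let-7e at -0.12 ± 0.15 and let-7i at -0.05 ± 0.11 (adjusted p = 0.778 and 0.909). The 4 tested let-7 passenger strands were higher, with a median of 0.28 that ran from 0.06 in the series value table to 0.37 without day 3 replicate 1. They were dim, let-7b* at 6.08 ± 0.17 (SD, n = 5) on day 28 and 5.82 ± 0.27 (n = 4) on day 3.

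The miR-15/16 family, linked to the exit of heart muscle cells from the cell cycle after birth, had 2 of 8 higher, both passenger strands (miR-195* 0.39 ± 0.29, miR-15a* 0.38 ± 0.31; adjusted p = 0.687 for each), and a median of -0.04. The miR-30 family, abundant in heart muscle, had 3 of 11 higher and a median of -0.04. The miR-10, miR-99, miR-100 and miR-125 families had 3 of 7 higher and a median of -0.02, with miR-99a at 0.06 ± 0.09 and miR-125a-5p at -0.08 ± 0.10. miR-26a and miR-26b differed by -0.02 ± 0.07 and -0.04 ± 0.07, and miR-101a and miR-101c by 0.02 ± 0.07 each.

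miR-22, abundant in heart muscle and linked to its growth response, differed by 0.09 ± 0.06 and miR-320 by 0.16 ± 0.09 (adjusted p = 0.687 for each), and both signs turned under all-probe scaling. miR-378 and miR-378*, carried by Ppargc1b, differed by -0.06 ± 0.07 and 0.04 ± 0.08. miR-204 and miR-211 differed by 0.06 ± 0.12 and 0.32 ± 0.28. Of 100 names in the imprinted Dlk1-Dio3 cluster 81 were detected on no array and 9 were tested, 6 higher and 3 lower, with a median of 0.10 that turned negative under 4 alternatives. Among these, miR-485* differed by 0.43 ± 0.39 and miR-494 by 0.21 ± 0.19. In the series value table miR-494 differed by -0.20, with day 3 replicate 3 at 7.77 and the other day 3 mice at 6.59 to 6.82. All 9 tested miRNAs numbered miR-5000 to miR-5199 were higher, with a median of 0.11, close to the 0.09 of all tested miRNAs, but the median was -0.10 with all-probe scaling, -0.02 without scaling and -0.05 in the series value table. Of these, miR-5107 differed by 0.28 ± 0.18. miR-5109 differed by 0.25 ± 0.19, and by -0.55 in the series value table, where day 3 replicate 3 read 12.11 and the other day 3 mice 8.94 to 9.73. Of the let-7, miR-15/16, miR-30, miR-10 and miR-125, miR-26, miR-101, miR-22 and miR-320, miR-378, miR-204 and miR-211, Dlk1-Dio3 and miR-5000 to miR-5199 lists, 0 members passed in limma, and let-7f-1* alone had an unadjusted p under 0.05.

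A group of 42 miRNAs had differences of one sign. These were named miR-297, miR-466, miR-467 or miR-669, names that belong mainly to a repeat-derived cluster in an intron of the Polycomb gene Sfmbt2. All 42 were higher on day 28, by 0.24 to 0.52, with a median of 0.46, while 0 passed in limma and 0 had an unadjusted p under 0.05. The list was drawn up by name. Of the 6 that matched a RefSeq name exactly, 0 lie within Sfmbt2. The 4 of these that hold the letters ACACAC, as 11 of the 1679 mature mouse sequences in the table do (0.655%), are shown because of their common repeat, with runs of ACAC in capitals; the strand printed was searched.
miR-467f: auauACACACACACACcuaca
miR-467g: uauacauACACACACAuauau
miR-466i-3p: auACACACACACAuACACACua
miR-466q: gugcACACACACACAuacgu
They lie at chr11:69635419-69635439, chr5:34732872-34732892, chr13:17747552-17747573 and chr3:28419988-28420007. miRNAs so alike in sequence are not independent readings.

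miR-467f read 8.71, 8.47, 8.46, 8.68 and 8.28 on day 28 and 8.37, 7.80, 8.10 and 7.73 on day 3. Day 28 replicate 5 lay below day 3 replicate 1, and the difference was 0.52 ± 0.29 (95% interval -0.08 to 1.12; adjusted p = 0.687). miR-467b* read 9.17, 8.71, 8.92, 9.20 and 8.61 against 8.68, 7.95, 8.76 and 8.29 (0.50 ± 0.29, adjusted p = 0.687). The array medians of the 42, taken against the day 3 mean, were 0.61, 0.13, 0.38, 0.76 and 0.30 on day 28 and 0.42, -0.49, 0.20 and -0.10 on day 3, so 3 day 28 arrays lay inside the day 3 range. Without day 3 replicate 2 the list's median was 0.26, and across the alternatives it ran from 0.13 in the series value table to 0.60 without day 3 replicate 1, with all 42 still higher at each of these. In vehicle hearts the 42 were higher as well, with a median of 0.16, and array medians there ran from -0.87 to 0.56 on day 3 alone. The lowest array medians lay on arrays with few spots well above background. They were -0.87 at 18.4% and -0.65 at 20.2% (vehicle day 3 replicates 4 and 6) and -0.49 at 22.1% (Printex 90 day 3 replicate 2). The order was not strict, with -0.26 at 25.2% in vehicle day 28 replicate 4. With the share of spots well above background as a covariate, the list's median stayed within the range of 0.13 to 0.60. The median over all 306 miRNAs was then 0.09. The part of array brightness in the day difference was not tested further.

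**Figure D4:**
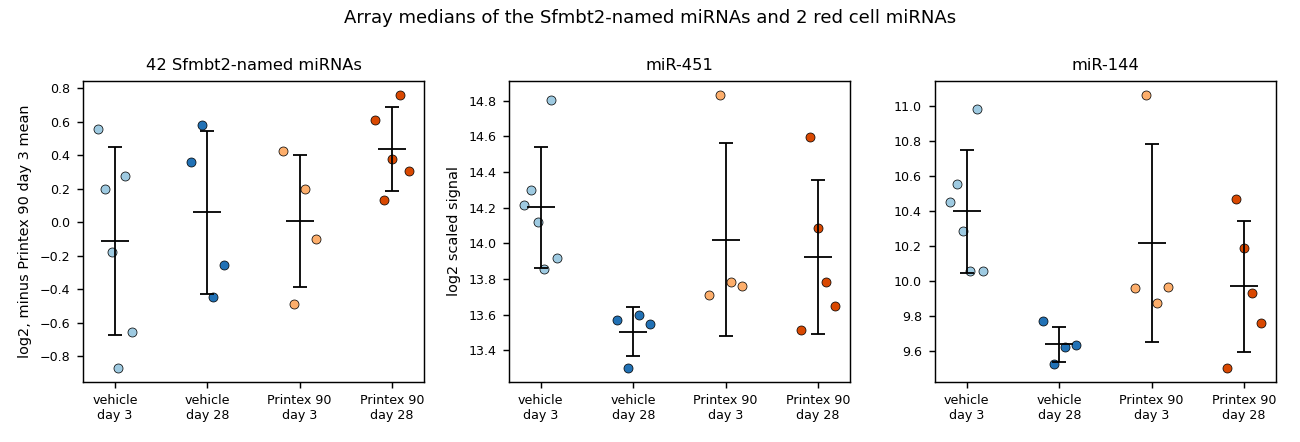
Array medians of the 42 Sfmbt2-named miRNAs relative to the Printex 90 day 3 mean (left), and log2 scaled signal of miR-451 (middle) and miR-144 (right), 1 point per array with means ± SD. Day 3 replicate 2 of the Printex 90 mice is the lowest of its group in the first, at -0.49, and the highest in miR-451 and miR-144, at 14.83 and 11.07.

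The same 2 days were then compared in vehicle hearts, to see which differences came with particles and which without. There 2 of 306 passed (0.654%): miR-208b fell, as given above, and miR-29b rose by 0.37 ± 0.09 (adjusted p = 0.0409), with day 3 arrays at 11.56 to 11.96 and day 28 arrays at 12.02 to 12.25. The miR-29b call was lost with the same sign in 9 alternatives of processing or fit, from 0.24 with all-probe scaling (adjusted p = 0.985) to 0.43 without scaling (1), and without any 1 of vehicle day 28 replicates 1, 3 and 4 or day 3 replicates 2, 4 and 6 (adjusted p up to 0.213). All day 28 arrays lay above all day 3 arrays for 2 of the 306 (0.654%) and below them for 7 (2.29%). The miR-29 family was higher in 5 of 5 with a median of 0.32. The 2 time differences share no arrays, but they come from 1 fit and the same slides. Across the 306 miRNAs, which are not independent, they had the same sign in 233 (76.1%), with Pearson r = 0.55 and Spearman rho = 0.64. Day 28 was higher for 67.3% in Printex 90 and 76.1% in vehicle hearts, so many signs would agree without any relation. With all-probe scaling these shares were 36.3% and 42.2%. The 42 Sfmbt2-named miRNAs, higher in both, are among the 233.

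The difference between the 2 time courses was tested directly. It passed for 0 of 306 miRNAs in limma, and 1 had an unadjusted p under 0.05. That was miR-10b, which read 6.62, 6.45, 6.06, 5.70 and 6.57 on day 28 and 6.67, 6.35, 6.42 and 6.31 on day 3 in Printex 90 hearts (-0.16 ± 0.30) and differed by 0.80 ± 0.29 in vehicle hearts. The difference of the differences was -0.95 ± 0.41 (95% interval -1.80 to -0.11; adjusted p = 0.982). For miR-208b it was 0.09 ± 0.23 and for miR-29b -0.09 ± 0.13 (adjusted p = 0.982 for each), with 95% intervals of -0.37 to 0.56 and -0.36 to 0.17.

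The red cell miRNAs were among those with the smallest p for this difference. In vehicle hearts miR-451 and miR-144 were lower on day 28 by -0.70 ± 0.24 and -0.76 ± 0.24 (adjusted p = 0.271 and 0.237), against -0.10 and -0.25 in Printex 90 hearts. The differences of 0.60 ± 0.35 and 0.51 ± 0.34 did not pass (adjusted p = 0.982 for each), and for miR-144* it was 0.63 ± 0.38. miR-208a-3p was lower by -0.10 in Printex 90 hearts and higher by 0.17 in vehicle hearts, a difference of -0.27 ± 0.16 (adjusted p = 0.982). The remaining named ones were let-7f-1* (0.33), miR-291b-5p (0.44), miR-450a (-0.22), miR-101c (-0.17) and miR-30d* (-0.27), all with adjusted p = 0.982.

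**Figure D5:**
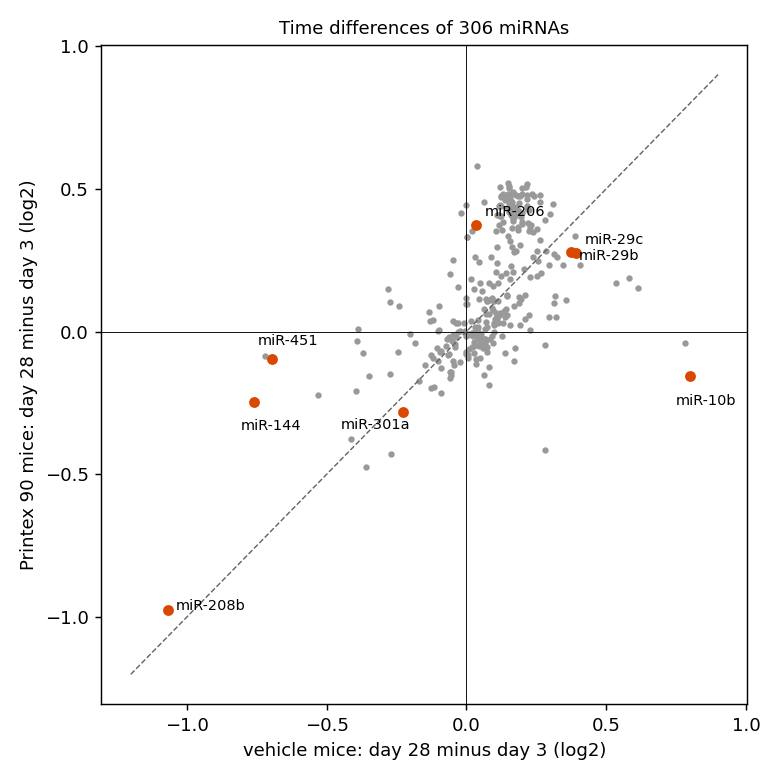
Day 28 minus day 3 differences of 306 miRNAs in Printex 90 hearts (vertical) against vehicle hearts (horizontal), both on the log2 scale; the dashed line marks equal differences and named miRNAs are in orange. miR-208b lies near the line at -0.97 and -1.07, while miR-451, miR-144 and miR-10b lie away from it, none with a tested difference past the threshold.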

How the data were processed

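The scanner files that the authors deposited hold spot intensity on a linear scale, background-subtracted by Feature Extraction 10.7.3.1 per the file headers. Here spots were averaged per probe without control and outlying spots, and a probe counted as detected when at least 0.5 of its spots stood above background. Each array was divided by its 75th percentile over the 418 probes found on all 29 arrays. Signals were floored at the lowest detected value (16.9) and taken to log2. miRNAs were means over probes that passed on 4 or more arrays of any group, leaving 306 miRNAs (621 probes) of 1079. The deposited series value table, in log2 intensity of unstated scaling and centring (column medians 5.78 to 5.82), was an alternative.

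limma 3.58.1 (R 4.3.3) fitted 1 mean per group over 6 groups with moderated variances. p-values are two-sided and Benjamini-Hochberg adjusted over 306 miRNAs, threshold 0.05. The fit was tested on simulated data. Named miRNAs were the 10 lowest p-values per direction, 20 set ones, up to 2 from each of 27 lists and 5 per direction between time courses; others were chosen after their values were seen. Members and lists were chosen with earlier results of these data known. RNA was individual to each mouse, per the labels, so p-values reflect the spread between mice. Normexp, planned on mean signals, used median signals. Arrays on the same slide, left-out arrays and other scalings were alternatives.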

Additional observations from a re-analysis of the deposited data

Results flagged for a closer look

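Groups of 4 or 5 Printex 90 arrays were taken by day, for each named miRNA and for the share of spots well above background. In 13 of these 146 groups an array stood farther from the rest than Dixon's 95% value allows. About 7.3 such cases would arise by chance, though the groups share arrays and are not independent. No difference between the time courses of exposed and vehicle mice passed the threshold.

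Day 3 replicate 2 of the Printex 90 mice accounted for 5 of the 13. It was high in the red cell miRNAs miR-451 (14.83, others 13.71 to 13.78) and miR-144 (11.07, others 9.88 to 9.97). It was low in miR-342-3p (6.81, others 7.20 to 7.24), miR-378* (8.39, others 8.57 to 8.59) and miR-3072* (4.64, others 5.07 to 5.10). On day 3, replicate 1 was high in miR-143 (10.12, others 9.89 to 9.92) and replicate 5 in miR-486* (6.57, others 6.38 to 6.40).

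On day 28, replicate 5 was high in the muscle miRNA miR-133a (14.01, others 13.83 to 13.84), in miR-34a (9.73, others 9.46 to 9.50) and in let-7e (9.10, others 8.77 to 8.85). Replicate 4 was high in miR-208b (4.72, others 4.08 to 4.21), still below all day 3 arrays, and in miR-15a* (5.77, others 5.20 to 5.29). Replicate 2 was low in miR-30c-1* (5.23, others 5.83 to 6.00).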

How the results depend on the processing

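No paired analysis was possible because the labels give each sample a number of its own. The count past the threshold in Printex 90 hearts, 1, became 0 after quantile normalization, without scaling, with normexp, with the floor at the 5th percentile, with probes detected on all arrays, which leave miR-208b out, and with the compared groups alone. It became 2 without a filter and with slide as a fixed block. It was 1 with each array left out, where miR-208b ran from -1.13 to -0.86. In vehicle hearts the count, 2, became 0 after quantile normalization, without scaling, with normexp and with the floor at the 5th percentile, chosen for this comparison and the next after seeing the data. It became 1 with all-probe scaling, the series value table, the brightest probe and the compared groups alone, in each case miR-208b with miR-29b lost, and 4 with the total gene signal and with slide as a fixed or random block. Leaving out 1 array gave 1 to 4. The count for the difference between time courses was 0 under all alternatives run. The difference in bright spots ran from -0.14 without day 3 replicate 2 to 0.92 percentage points without day 3 replicate 1.

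Named miRNAs that had not passed turned sign as follows, and the cause was not tested. In the series value table day 3 replicate 3 stood above the other day 3 mice in miR-3072*, miR-494 and miR-5109, as given above. In the series value table the values were miR-3072* -0.094, miR-1a 0.023, miR-499 -0.0034, miR-155 -0.016, miR-486* -0.012, miR-30c-1* -0.016, miR-30c-2* -0.042, miR-99a -0.067, miR-101a -0.11, miR-101c -0.059, miR-320 -0.0089, miR-378* -0.085, miR-204 -0.012, miR-494 -0.20 and miR-5109 -0.55. With all-probe scaling the values were miR-34a -0.042, miR-133a -0.16, miR-499 -0.091, miR-155 -0.11, miR-126-3p -0.093, miR-486* -0.14, miR-30c-1* -0.021, miR-30c-2* -0.15, miR-99a -0.16, miR-101a -0.19, miR-101c -0.19, miR-320 -0.053, miR-22 -0.12, miR-378* -0.18, miR-204 -0.15 and miR-494 -0.0064. With the brightest probe the values were miR-1a 0.028. With slide as a fixed block the values were miR-1a 0.014 and miR-143 0.0033. After quantile normalization the values were miR-133a -0.066, miR-155 -0.074, miR-486* -0.12, miR-30c-2* -0.11, miR-101c -0.034, miR-320 -0.022, miR-378* -0.15 and miR-204 -0.15. Without scaling the values were miR-133a -0.072, miR-499 -0.0042, miR-155 -0.019, miR-126-3p -0.0066, miR-486* -0.054, miR-30c-2* -0.060, miR-99a -0.069, miR-101a -0.10, miR-101c -0.10, miR-22 -0.037, miR-378* -0.088 and miR-204 -0.062. With normexp the values were miR-210 0.021 and miR-145 0.00016. With brightness as a covariate the values were miR-143 0.0035. With 1 array left out at a time, miR-1a ran from -0.072 to 0.0063, miR-223 ran from -0.072 to 0.020, miR-142-3p ran from -0.21 to 0.11, miR-451 ran from -0.26 to 0.17, miR-144 ran from -0.37 to 0.036, miR-122 ran from -0.61 to 0.12, miR-210 ran from -0.084 to 0.024, miR-145 ran from -0.11 to 0.00068, miR-143 ran from -0.071 to 0.033, miR-30c-2* ran from -0.0051 to 0.12, miR-125a-5p ran from -0.16 to 0.029, miR-99a ran from -0.0024 to 0.094, miR-101a ran from -0.0066 to 0.059, miR-26a ran from -0.072 to 0.016 and miR-378* ran from -0.011 to 0.070. Precision is limited by signal over background: miR-208b on day 28 and miR-206 lay near the floor.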
